A study of Mus musculus with 16 samples.

Results

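Interferon response genes were followed across the cortices of 16 mouse pups at P7. The 9 genes were taken by symbol from the deposited table of 36930 gene entries: Ifit1, Ifit3, Isg15, Irf7, Irf9, Usp18, Bst2, Oasl2 and Ifih1. All 9 were listed, and 8 passed the filter on low values, which left 21183 genes. The exception was Ifit1, which had no value in any pup.

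The pups were C57BL6 mice, 8 ChR2-flfl and 8 Avil-ChR2, all 7 days old. Both genotypes carried a floxed ChR2/td-Tomato fusion (Ai27D) in the Rosa26 locus, in which a STOP cassette precedes the light-gated channel. In Avil-ChR2 mice, Cre recombinase under the advillin promoter removes the STOP cassette, mainly in sensory neurons, whereas ChR2-flfl litter mates have no Cre. Both genotypes were lit with blue light for 1 h per day from P1 to P5, so that an unlit group is not part of the comparison. The question put to the genes was whether their cortical levels differ after stimulation of sensory neurons in early life, and how they vary together among pups.

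Interferons are secreted proteins of antiviral defence. Type I interferons bind the receptor made of Ifnar1 and Ifnar2, and the kinases Jak1 and Tyk2 then activate transcription factors of the STAT family, among them Stat2. Stat2 acts with Irf9 in a complex that binds interferon-stimulated response elements in the promoters of many target genes. A low tonic activity of this pathway is present in healthy tissue, and in brain the cells known to respond include microglia, vascular cells, astrocytes and neurons.

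Values are normalized reads, scaled to a library of 1000000 reads (CPM). Depth was 30549126 to 48711134 reads per pup, worked out from the step of 1 read in each column. ChR2-flfl replicate 3 had the lowest depth, and the other 15 pups had at least 47791532 reads. A count of 3 reads corresponds to 0.0613 to 0.0970 CPM. Avil, whose promoter drives Cre, had 1.07 ± 0.199 CPM (SD, n = 8) in ChR2-flfl and 39.7 ± 2.89 CPM (SD, n = 8) in Avil-ChR2 cortices. The genotypes did not overlap in Avil. Avil-ChR2 replicate 4 was labelled female, but its Y-linked genes were at male levels, with 64.6 CPM of Eif2s3y against at most 0.125 CPM in the other pups labelled female. Results that use sex are therefore given with both assignments. Without this pup none of the 8 genes was called either, and the same number of pairs of genes varied together (3). Neuron markers were summed as a description of the tissue. Markers that tell cortex from other brain regions were not examined, so the sum does not check the cortex label. The summed level of 8 neuron markers was 6005 to 6299 CPM in ChR2-flfl and 6007 to 6289 CPM in Avil-ChR2 pups.

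The 8 measured genes ranged from 0.247 to 13.2 CPM over all pups, and no difference between the genotypes passed the test in any of them. Per kilobase of annotated exons, Bst2 had the highest level with 2.25 ± 0.465 CPM per kb (SD, n = 16 pups), followed by Irf9 with 2.19 ± 0.168 CPM per kb. Isg15 came next with 0.707 ± 0.169 CPM per kb, Ifih1 with 0.616 ± 0.0799 and Ifit3 with 0.495 ± 0.155. The lowest levels per length were those of Oasl2 with 0.236 ± 0.0575 CPM per kb, Usp18 with 0.200 ± 0.0682 and Irf7 with 0.138 ± 0.0428. The ranges of neighbours in this order overlapped at every step except between Irf9 and Isg15. The length used was the union of exons over all annotated transcripts, 5386 bases for Irf9, 3776 for Irf7 and 903 for Bst2. For Irf7 it was longer than the span of its entry. This order therefore depends on the annotation, and other lengths were not tried. None of the 8 genes had an unadjusted or an adjusted p under 0.05 in limma (0 of 8 for both), where 5.41% of all 21183 genes had an unadjusted p under 0.05 (1.95% higher and 3.46% lower) and 0.00944% an adjusted p. The genotypes overlapped for each of the 8 genes, and did not overlap for 0.0283% of all genes. The voom version of limma on the worked out reads, added after the data were seen, also gave 0 of 8 for both.

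**Figure D1:**
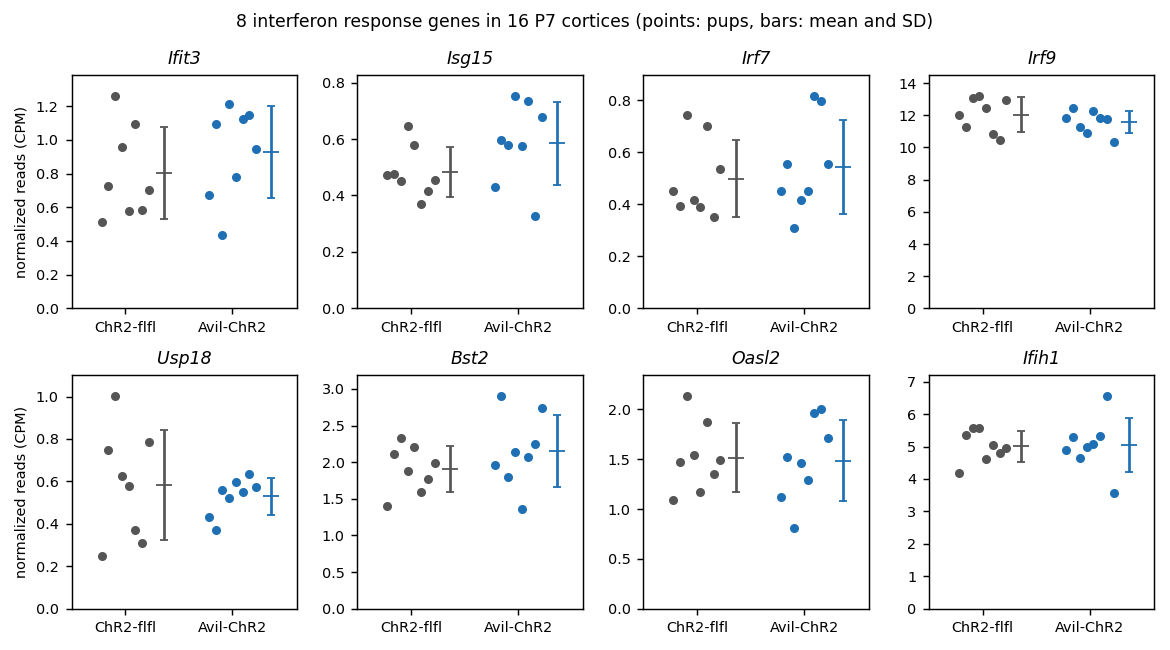
Normalized reads (CPM, linear axis from 0) of 8 interferon response genes in each of 8 ChR2-flfl and 8 Avil-ChR2 pups. Points are pups, and bars give the mean and SD per genotype. The genotypes overlap for every gene, and Usp18 spreads from 0.247 to 1.00 CPM in ChR2-flfl but from 0.371 to 0.635 CPM in Avil-ChR2.

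Ifit3, an RNA-binding antiviral protein, is located on chromosome 19 (GRCm38, plus strand, 34583142 to 34588982). It had a lowest, median and highest value of 0.515, 0.715 and 1.26 CPM in ChR2-flfl and of 0.435, 1.02 and 1.21 CPM in Avil-ChR2 pups. The highest pup was a control and the lowest an Avil-ChR2 pup. Its log2 difference (Avil-ChR2 minus ChR2-flfl) was 0.21 with a standard error of 0.23 (limma adjusted p = 0.966). The pup numbers in the labels have a gap after 33, and this difference was -0.06 among low-numbered pups (26 to 33) and 0.47 among high-numbered pups (35 to 42).

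Oasl2, a member of the oligoadenylate synthetase family, lies on chromosome 5 from 114896934 to 114912245. Values were 1.09, 1.48 and 2.13 CPM (lowest, median, highest) in ChR2-flfl and 0.808, 1.49 and 2.01 CPM in Avil-ChR2 pups. The lowest pup was again an Avil-ChR2 pup and the highest a control. The log2 difference was -0.05 with a standard error of 0.18 (limma adjusted p = 0.992), and it was -0.35 among low-numbered and 0.24 among high-numbered pups.

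Isg15, a ubiquitin-like protein that is conjugated to other proteins, lies on chromosome 4 from 156199424 to 156200818 on the minus strand. Its values were 0.371, 0.465 and 0.647 CPM in ChR2-flfl and 0.328, 0.589 and 0.753 CPM in Avil-ChR2 pups. Of the Avil-ChR2 pups 6 were above the control mean, and the ranges overlapped. The log2 difference of 0.25 with a standard error of 0.18 was the largest of the 8 genes (limma adjusted p = 0.945; exact permutation test, two-sided, p = 0.164). Isg15 was the only one of the 8 genes that reached an unadjusted p under 0.05 when a pup was left out. That was without Avil-ChR2 replicate 7, where its difference was 0.36 (limma unadjusted p = 0.0363, adjusted p = 0.999). Usp18, the protease that removes Isg15 from proteins and also restrains the type I receptor, lies on chromosome 6 from 121245906 to 121270917. It had 0.247, 0.602 and 1.00 CPM in ChR2-flfl and 0.371, 0.556 and 0.635 CPM in Avil-ChR2 pups. All Avil-ChR2 pups thus fell inside the control range. The log2 difference was -0.01 with a standard error of 0.25 (limma adjusted p = 0.998).

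Irf7, the transcription factor that amplifies type I interferon production, lies on chromosome 7 from 141263183 to 141266499. It had 0.353, 0.435 and 0.744 CPM in ChR2-flfl and 0.311, 0.505 and 0.818 CPM in Avil-ChR2 pups. Its log2 difference was 0.11 with a standard error of 0.21 (limma adjusted p = 0.986), and it was -0.19 among low-numbered and 0.41 among high-numbered pups. Irf9, on chromosome 14 from 55603985 to 55610030, was the most even of the genes. It is the DNA-binding partner of Stat2, with 10.4, 12.2 and 13.2 CPM in ChR2-flfl and 10.4, 11.8 and 12.5 CPM in Avil-ChR2 pups. Its log2 difference was -0.05 with a standard error of 0.056 (limma adjusted p = 0.964). The 95% interval of this difference was -0.17 to 0.06, whereas that of Usp18 was -0.54 to 0.51.

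Ifih1 (MDA5), the cytoplasmic sensor of long double-stranded RNA, lies on chromosome 2 from 62595612 to 62646255. It had 5.01 ± 0.480 CPM (SD, n = 8) in ChR2-flfl and 5.04 ± 0.825 CPM (SD, n = 8) in Avil-ChR2 pups. The highest and the lowest pup were both Avil-ChR2 pups. The log2 difference was -0.0024 with a 95% interval of -0.20 to 0.19 (limma adjusted p = 1). Bst2 (tetherin), which holds budding virus particles at the cell membrane, lies on chromosome 8 from 71534259 to 71537437. Its values were 1.40, 1.93 and 2.33 CPM in ChR2-flfl and 1.36, 2.10 and 2.90 CPM in Avil-ChR2 pups. The log2 difference was 0.16 with a standard error of 0.14 (limma adjusted p = 0.954). Over the 8 genes, 4 differences were positive and 4 negative with a median of 0.05, against a median of 0.002 over all genes. The sign was the same in both runs of pup numbers for 3 genes, Isg15, Irf9 and Bst2, and none of the exact permutation p-values of the 8 genes was below 0.164.

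Ifit1, which binds foreign RNA that lacks a normal cap, had 0 reads in each of the 16 pups. Its span is chromosome 19 from 34640889 to 34650009, inside the span of the entry Gm14446 (Ifit1bl1) on the opposite strand, from which the table had 5.44 ± 0.704 CPM (SD, n = 8) in ChR2-flfl and 5.67 ± 0.349 CPM (SD, n = 8) in Avil-ChR2 pups. The related genes Ifit3b and Ifit1bl2 lie inside the same entry and also had 0 reads. Of 5866 entries that lie inside another entry, 94.4% had no read in any pup, against 13.6% of the 22239 entries that overlap no other entry. On the opposite strand this share was 93.6% of 3451 entries. A limit from depth cannot therefore be set on Ifit1, and whether its reads were counted under Gm14446 was not tested. Ifit2, which is not enclosed, had 12.5 ± 0.399 CPM (SD, n = 8) in ChR2-flfl and 12.4 ± 0.852 CPM (SD, n = 8) in Avil-ChR2 pups. Oasl1, the relative of Oasl2, had at most 5 reads in a pup.

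Pooled over the genotypes, variation among pups exceeded counting error to different degrees. For Isg15, counting of 14 to 36 reads per pup alone gives 76.4% of the variance of log2 values among pups of a genotype. This share was 47.5% for Irf7 with 15 to 40 reads and 30.8% for Usp18 with 12 to 38 reads. It was 21.2% to 30.4% for the other 5 genes. Within ChR2-flfl, the SD of log2 Isg15 was 0.25, below the 0.31 that counting gives. Within Avil-ChR2 it was 0.41, where counting gives 0.28. The SD of log2 Usp18 was 0.71 in ChR2-flfl, where counting gives 0.31, and 0.26 in Avil-ChR2, where counting gives 0.29. This difference in spread was not tested.

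Ifit3, Oasl2 and Irf7 varied together from pup to pup by Pearson's r, although the pair of Ifit3 and Irf7 did not pass by Spearman's rho. No pair with any of the other 5 genes passed the test over 16 pups. Pearson's r was calculated on log2 values after subtraction of the genotype mean, for the 28 pairs of 8 genes over 16 pups, with 100000 permutations of pups within genotype. The permutations did not keep pups within their run of pup numbers. Genes with a read numbered 23914 to 24262 in pups 26 to 33, apart from ChR2-flfl replicate 3 (23246). In pups 35 to 42 they numbered 23379 to 23583. The part of this difference between runs in r was not tested. The median r was 0.29, with 25 pairs above and 3 below 0. It was 0.18 without ChR2-flfl replicate 3, 0.34 within ChR2-flfl (3 pairs below 0) and 0.10 within Avil-ChR2 pups (10 pairs below 0). Of all r between the 8 genes and the other genes, 50.5% were above 0. An adjusted p under 0.05 was found for 3 of 28 pairs, and 0.207% of all pairs of the 8 genes with any gene had an r at least as high as the lowest of these.

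Ifit3 and Oasl2 had r = 0.92 and Spearman's rho = 0.91 (permutation p = 1e-05 for both, the smallest that 100000 permutations can give, adjusted p = 0.00028). Oasl2 was the gene with the highest r to Ifit3 among 21182 genes, and Ifit3 the one with the highest r to Oasl2. Oasl2 and Irf7 had r = 0.87 (permutation p = 5e-05, adjusted p = 0.0007) and rho = 0.77 (permutation p = 0.00127, adjusted p = 0.0178). Ifit3 and Irf7 had r = 0.75 (permutation p = 0.00171, adjusted p = 0.0160) and rho = 0.63 (permutation p = 0.0137, adjusted p = 0.0769). Irf7 ranked 63 among the genes most like Ifit3. The 3 genes are on chromosomes 19, 5 and 7.

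Several pups stood near the same end in all 3 genes. ChR2-flfl replicate 3 had the highest Ifit3 (1.26 CPM) and Oasl2 (2.13 CPM) of all pups and the third highest Irf7 (0.744 CPM). Avil-ChR2 replicate 3 had the lowest Ifit3 (0.435 CPM), Oasl2 (0.808 CPM) and Irf7 (0.311 CPM). Avil-ChR2 replicates 6 and 7 had 1.12 and 1.15 CPM of Ifit3, 1.96 and 2.01 CPM of Oasl2, and 0.818 and 0.799 CPM of Irf7. Avil-ChR2 replicate 4 was an exception, with the second highest Ifit3 (1.21 CPM) but the rank 10 in Oasl2 (1.46 CPM) and 11 in Irf7 (0.418 CPM) among 16 pups. Pups of both genotypes were found at the high end. Since ChR2-flfl replicate 3 is also the library with the lowest depth, r was calculated without it. It was then 0.91 for Ifit3 and Oasl2 (permutation adjusted p = 0.00028), 0.84 for Irf7 and Oasl2 (permutation adjusted p = 0.00392) and 0.69 for Ifit3 and Irf7 (permutation adjusted p = 0.0636). Without Avil-ChR2 replicate 3, the third pair had r = 0.65 (permutation adjusted p = 0.122).

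Without the 2 pups farthest from the median of the first gene of a pair, r was 0.84 for Ifit3 and Oasl2 (permutation p = 0.00028, adjusted p = 0.00784) and 0.81 for Irf7 and Oasl2 (permutation p = 0.00154, adjusted p = 0.0216). It was 0.54 for Ifit3 and Irf7 (permutation p = 0.0527, adjusted p = 0.492), so that this pair did not pass over the other 14 pups, without ChR2-flfl replicate 3 and Avil-ChR2 replicate 3. Within genotypes, Ifit3 and Oasl2 had r = 0.96 in ChR2-flfl (exact permutation p = 4.96e-05, adjusted p = 0.00139, n = 8) and 0.91 in Avil-ChR2 (exact permutation p = 0.00342, adjusted p = 0.0479, n = 8). Irf7 and Oasl2 had 0.78 in ChR2-flfl, which did not pass after adjustment (exact permutation p = 0.0252, adjusted p = 0.131, n = 8), and 0.92 in Avil-ChR2 (exact permutation p = 0.000943, adjusted p = 0.0264, n = 8). Ifit3 and Irf7 had 0.76 (exact permutation adjusted p = 0.131) and 0.73 (exact permutation adjusted p = 0.373). Among low-numbered pups, r was 0.98, 0.78 and 0.69 for the 3 pairs in this order, and among high-numbered pups it was 0.94, 0.92 and 0.94. Of these only the first pair among high-numbered pups passed after adjustment (exact permutation adjusted p = 0.0486), and both pups left out above are low-numbered. None of the 28 pairs differed in r between genotypes after adjustment (0 of 28, and 2 of 28 at an unadjusted exact permutation p under 0.05).

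**Figure D2:**
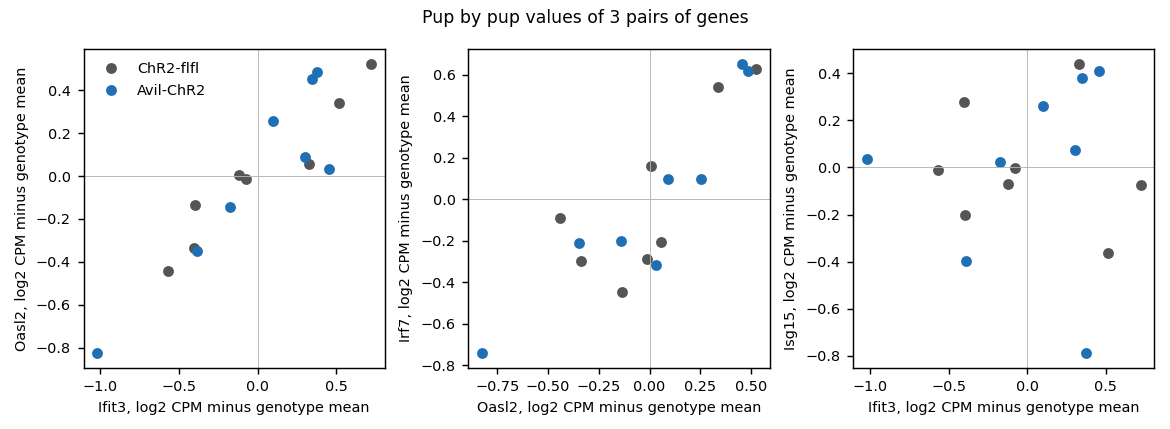
Log2 normalized reads (CPM) minus the genotype mean for Ifit3 against Oasl2, Oasl2 against Irf7 and Ifit3 against Isg15, with 1 point per pup (8 ChR2-flfl, 8 Avil-ChR2). The first 2 panels rise from Avil-ChR2 replicate 3 at the lower left (r = 0.92 and 0.87), and the last shows no trend (r = 0.03).

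Isg15 did not follow these genes. Its r was 0.03 with Ifit3 (permutation p = 0.917, adjusted p = 0.917), -0.12 with Oasl2, -0.30 with Irf7 and -0.37 with Ifih1 (permutation p = 0.230, adjusted p = 0.429). Avil-ChR2 replicate 7, which was second highest in Oasl2 and Irf7, had the lowest Isg15 of all pups (0.328 CPM). With most of its variance of the size of counting error, an r of Isg15 with other genes is limited at this depth. Ifih1 had r = 0.48 with Ifit3 (permutation p = 0.0821, adjusted p = 0.351) and rho = 0.68 (permutation p = 0.00724, adjusted p = 0.0676), and with Oasl2 r = 0.44 and rho = 0.63 (permutation p = 0.0136, adjusted p = 0.0769 for rho). These rho were not below that of Ifit3 and Irf7. Within ChR2-flfl, Ifih1 had r = 0.81 with Ifit3 and 0.80 with Oasl2 (exact permutation adjusted p = 0.131 for both, n = 8), and within Avil-ChR2 it had 0.32 and 0.29. Whether the r of Ifih1 differs from that of Irf7 was not tested. Irf9 had r between 0.06 and 0.44 with the other 7 genes. Usp18 and Bst2 had r = 0.89 in ChR2-flfl (exact permutation p = 0.00315, adjusted p = 0.0441, n = 8) and -0.42 in Avil-ChR2 (exact permutation p = 0.291, adjusted p = 0.881, n = 8). This pair and that of Ifit3 and Oasl2 were the only 2 of 28 that passed within ChR2-flfl. The difference of its r between genotypes had an exact permutation p of 0.0173 and an adjusted p of 0.418 over 28 pairs.

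**Figure D3:**
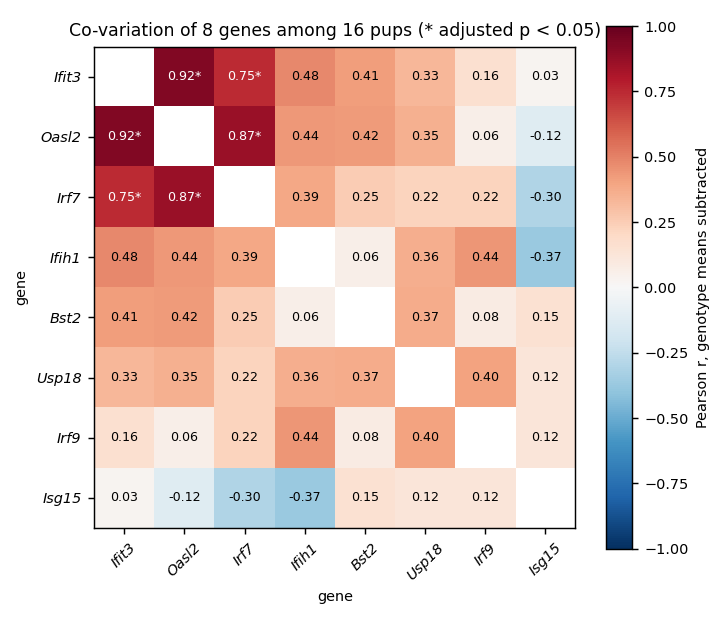
Pearson's r of the 28 pairs of 8 genes over 16 pups, on log2 normalized reads with genotype means subtracted. Colour and number give r, and asterisks mark the 3 pairs with a permutation p adjusted over 28 pairs under 0.05, which join Ifit3, Oasl2 and Irf7 at the upper left, whereas the row of Isg15 is near or below 0.

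The bases before the gene starts of the 3 co-varying genes and of Isg15 are shown, since interferon-stimulated response elements are commonly found there. They are from RefSeq on GRCm38.p6, 250 bases 5′ to 3′ on the strand of each gene, ending with the last base before the RefSeq gene start, which can differ from the start in the deposited table. Capitals mark matches to the core of the element, GAAA, any 2 bases and GAAA, on either strand, and overlapping matches are joined.
Ifit3 (chr19:34583279-34583528, plus strand): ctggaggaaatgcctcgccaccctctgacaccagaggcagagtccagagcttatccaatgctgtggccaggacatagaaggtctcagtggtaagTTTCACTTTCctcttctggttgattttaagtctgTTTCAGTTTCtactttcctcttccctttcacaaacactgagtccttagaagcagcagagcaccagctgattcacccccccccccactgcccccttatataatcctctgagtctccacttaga
Oasl2 (chr5:114896684-114896933, plus strand): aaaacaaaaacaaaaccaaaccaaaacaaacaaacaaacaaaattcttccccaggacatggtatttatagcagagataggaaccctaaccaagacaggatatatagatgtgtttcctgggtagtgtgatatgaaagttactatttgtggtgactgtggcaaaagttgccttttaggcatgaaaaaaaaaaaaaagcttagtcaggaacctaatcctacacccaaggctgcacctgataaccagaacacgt
Irf7 (chr7:141266425-141266674, minus strand): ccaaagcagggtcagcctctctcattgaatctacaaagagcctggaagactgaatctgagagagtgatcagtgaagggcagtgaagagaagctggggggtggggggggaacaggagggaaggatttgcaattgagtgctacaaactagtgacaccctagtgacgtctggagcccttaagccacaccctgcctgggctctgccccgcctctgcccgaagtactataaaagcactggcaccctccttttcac
Isg15 (chr4:156200819-156201068, minus strand): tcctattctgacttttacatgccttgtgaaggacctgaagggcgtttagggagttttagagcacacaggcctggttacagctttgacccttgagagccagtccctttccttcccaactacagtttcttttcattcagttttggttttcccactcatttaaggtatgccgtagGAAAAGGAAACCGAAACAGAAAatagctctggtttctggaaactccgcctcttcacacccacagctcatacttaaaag

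Ifit3 had 2 matches, at -156 and -122 from the gene start, and Isg15 had 3 overlapping matches, at -78, -72 and -66. Oasl2 and Irf7 had no match in these windows. Whether these matches relate to the co-variation of the genes was not tested. Among 32851 RefSeq promoters, 2.98% held a match in these 250 bases, and 0.0122% held 3 or more. Of the other genes, Ifit1 had 2 matches, at -104 and -85, and Bst2 had 2 overlapping matches, at -130 and -124. Irf9 had none in either of its windows, and Ifih1 had none in the 250 bases before its start. Promoter windows were found for 8 of the 9 genes, all except Usp18. The core of the gamma-activated site, TTC, any 3 bases and GAA, searched in the same windows, was found among the 8 genes in Bst2 alone, at -136, and 7.02% of all promoters held it.

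Bst2 varied with marker genes of other cell types, with the highest r for vascular cells. Its r with the mean of 8 endothelial markers was 0.83 (permutation p = 4e-05, adjusted p = 0.00288 over 72 relations of 8 genes with 9 marker lists) and rho was 0.87 (permutation p = 3e-05, adjusted p = 0.00216). Without the 2 pups farthest from the median of Bst2, r was 0.91. With 8 markers of pericytes and meningeal fibroblasts, r was 0.77 (permutation p = 0.00121, adjusted p = 0.0436) and rho 0.77 (permutation p = 0.00158, adjusted p = 0.0533). With 11 microglia markers, r was 0.62 (permutation p = 0.00291, adjusted p = 0.0524) and rho 0.72 (permutation p = 0.00222, adjusted p = 0.0533). Without the same 2 pups, r was 0.76 with the pericyte and fibroblast markers and 0.84 with the microglia markers. Further r of Bst2 were 0.71 with other myeloid and lymphoid markers (permutation p = 0.00276, adjusted p = 0.0524), 0.65 with choroid plexus markers (permutation p = 0.00899, adjusted p = 0.0925) and 0.54 with astrocyte markers (permutation p = 0.0162, adjusted p = 0.129). Differences between these r were not tested. The endothelial and the pericyte and fibroblast markers gave the only 2 of 72 relations with an adjusted p under 0.05 for r, and 14 had an unadjusted p under 0.05. The share of all genes with such an r to these marker lists was not calculated, so whether Bst2 stands out among all genes is not known. Ifit3 and Oasl2 had r = 0.68 (permutation p = 0.00507, adjusted p = 0.0730) and 0.67 (permutation p = 0.00808, adjusted p = 0.0925) with the pericyte and fibroblast markers, whereas Irf7 had 0.52 (permutation p = 0.0531, adjusted p = 0.233). In whole cortex, fewer cells of a type and less RNA per cell cannot be told apart. The summed levels of endothelial markers were 173.5 to 203.5 CPM in ChR2-flfl and 176.4 to 212.3 CPM in Avil-ChR2 pups, and their part in the pattern of Bst2 was not tested.

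**Figure D4:**
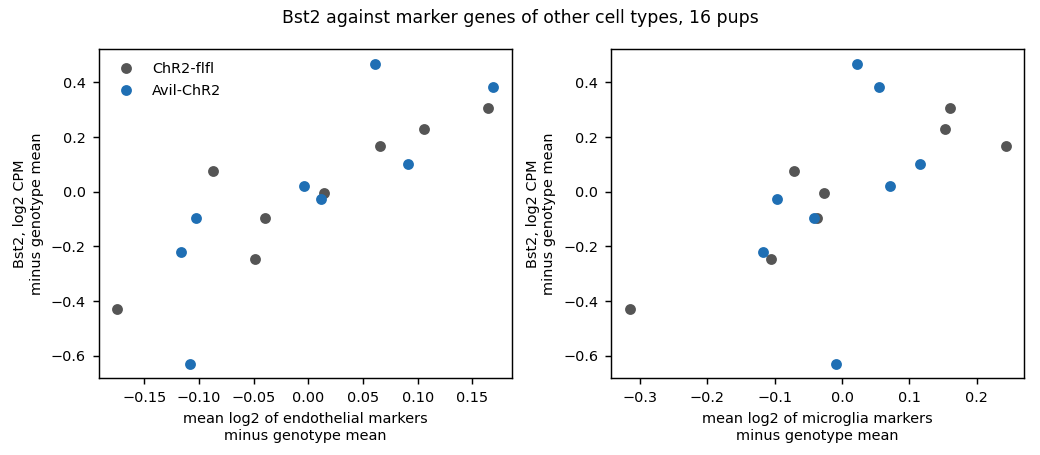
Bst2 against the mean of endothelial markers (left) and of microglia markers (right), both as log2 normalized reads minus the genotype mean, with 1 point per pup (8 ChR2-flfl, 8 Avil-ChR2). Bst2 rises with the endothelial markers in both genotypes (r = 0.83) and is more scattered against the microglia markers (r = 0.62). Without the 2 pups farthest from the median of Bst2, these r were 0.91 and 0.84.

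Levels were also set out by sex, a contrast chosen after the values were seen. In ChR2-flfl pups, Ifit3 was at 0.726 to 1.26 CPM in 4 females and at 0.515 to 0.703 CPM in 4 males, and Ifih1 at 5.05 to 5.57 CPM in females and at 4.19 to 4.96 CPM in males. These 2 of 8 genes did not overlap between the sexes, which held for 3.65% of all genes in control pups. Oasl2 followed with 1.47 to 2.13 CPM in females and 1.09 to 1.49 CPM in males. In Avil-ChR2 pups the sexes overlapped in each of the 8 genes. The genotype difference itself differed between the sexes at an unadjusted limma p under 0.05 for 4 of 8 genes with sex as labelled (4.31% of all genes), and for 3 of 8 with Avil-ChR2 replicate 4 as male (6.23% of all genes). None of the 8 passed with an adjusted p under either assignment. Several of these genes varied together among pups, so the counts are not of independent genes.

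The other genes of the pathway were compared from lists chosen with earlier results of these data known. Of 21 interferon genes, 17 had no read in any pup. Of these 17, 1 (Ifnk) lies inside another entry (Mob3b), so that, as for Ifit1, no limit from depth can be set on it. Ifng had 11 reads over all 16 pups, Ifne had 4, and Ifna12 and Ifna15 had 2 each. No pup had more than 3 reads of any interferon gene, and none of these genes passed the filter. Ifnb1 had 0 reads, which allows up to 0.0613 to 0.0970 CPM per pup (3 reads, counting error only).

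Of 11 receptors and JAK-STAT members 1 was higher at an unadjusted p under 0.05, where 5.41% of all genes were called. This was Ifngr2, a chain of the interferon gamma receptor, with 118 ± 3.18 CPM (SD, n = 8) in ChR2-flfl and 123 ± 3.33 CPM (SD, n = 8) in Avil-ChR2 pups, a log2 difference of 0.06 with a standard error of 0.024 (limma adjusted p = 0.833). Jak1 had 218 ± 8.26 CPM and 221 ± 7.71 CPM (SD, n = 8 each), and the type I receptor chain Ifnar1 had 77.9 ± 2.01 CPM and 77.1 ± 2.53 CPM. Of 15 nucleic acid sensing genes none was called at an unadjusted or adjusted p under 0.05 (0 of 15 in limma). Among these, the kinase Tbk1 was at 40.6 ± 1.86 and 40.1 ± 1.71 CPM, Irf3 at 13.6 ± 1.26 and 13.9 ± 1.19 CPM, and the ubiquitin ligase Trim25 at 9.68 ± 0.935 and 10.1 ± 0.958 CPM (ChR2-flfl and Avil-ChR2, SD, n = 8 each).

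Of 62 other interferon-stimulated genes 52 were tested, of which 2 were higher and 1 was lower at an unadjusted p under 0.05 (5.77%, against 5.41% of all genes), and none at an adjusted p. Trim30a, a negative regulator of inflammatory signalling, had 0.683, 0.980 and 1.38 CPM (lowest, median, highest) in ChR2-flfl and 0.941, 1.30 and 1.57 CPM in Avil-ChR2 pups. Of the Avil-ChR2 pups 7 were above the control mean, and the log2 difference was 0.37 with a standard error of 0.15 (limma adjusted p = 0.848). Igtp, an immunity-related GTPase, had 1.11 ± 0.259 and 1.37 ± 0.245 CPM (SD, n = 8 each), a log2 difference of 0.31 with a standard error of 0.15 (limma adjusted p = 0.911). Rnf213, a large ubiquitin ligase, had 12.5 ± 1.44 and 11.1 ± 0.851 CPM (SD, n = 8 each). Its log2 difference was -0.17 with a standard error of 0.064 (limma adjusted p = 0.841), and it was -0.28 among low-numbered and -0.05 among high-numbered pups. The genes of the list with the highest normalized reads, not scaled by length, were Adar with 172 ± 4.91 and 170 ± 4.59 CPM, Stat2 with 33.5 ± 2.93 and 34.0 ± 1.36 CPM, and Cmpk2 with 23.4 ± 1.65 and 24.3 ± 1.19 CPM. The median log2 difference of the 52 genes was 0.04. Of 13 negative regulators none was called (0 of 13 at an unadjusted or adjusted p under 0.05), with Ptpn11 at 164 ± 3.22 and 166 ± 3.44 CPM and Pias1 at 49.0 ± 2.13 and 47.2 ± 1.90 CPM.

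**Figure D5:**
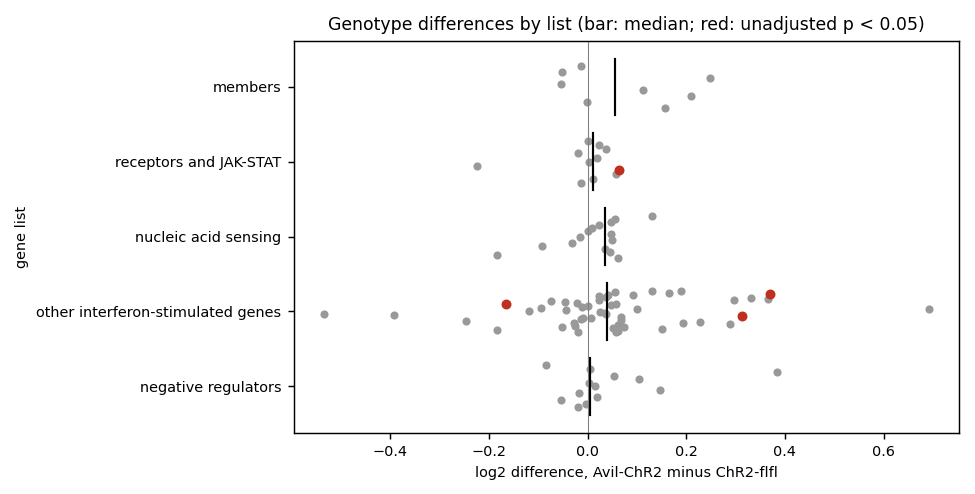
Log2 difference (Avil-ChR2 minus ChR2-flfl, n = 8 pups each) of every tested gene of 5 lists, with 1 point per gene, a bar at the median and red points for an unadjusted limma p under 0.05. The medians lie between 0.005 and 0.05, and the red points are Ifngr2, Rnf213, Trim30a and Igtp.

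The wider list was also set against the co-varying genes. Of the 52 other interferon-stimulated genes, 46 had a positive r with Ifit3 (88.5%, against 51.3% of all genes) and the median r was 0.36, against 0.01 for all genes. With Oasl2 the median r was 0.37 and with Irf7 it was 0.26. None of the 52 reached r = 0.75 with any of the 3 genes. Among all genes, 0.241% reached it with Ifit3, 0.25% with Oasl2 and 0.0755% with Irf7. Of the marker genes, Gja1 of astrocytes had r = 0.78 with Ifit3, and Slco1a4 of endothelial cells had 0.80 with Oasl2. The receptors and JAK-STAT members had a median r of 0.06 with Ifit3, the negative regulators 0.06 and the nucleic acid sensing genes 0.20. Marker lists of cell types had medians of 0.50 for endothelial, 0.47 for pericyte and fibroblast, 0.37 for other myeloid and lymphoid, 0.34 for microglia, 0.34 for astrocyte, 0.17 for neuron and -0.02 for oligodendrocyte lineage markers. A positive r with Ifit3 was as common in several of these lists as in the 52 genes. It was found for 87.5% of endothelial, 87.5% of pericyte and fibroblast, 81.8% of microglia and 100% of astrocyte markers. In neuron markers the share was 62.5%, and in oligodendrocyte lineage markers 42.9%. These r are descriptions across genes of the same 16 libraries, and genes are not independent replicates.

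The 5 genes whose pattern over 16 pups was most like the mean of the standardized values of the 8 genes, among genes averaging at least 1 CPM on the log2 scale, were Cd36 with r = 0.86 and rho = 0.78, Arhgef6 with r = 0.85 and rho = 0.76, Foxd1 with r = 0.84 and rho = 0.84, Olfml1 with r = 0.84 and rho = 0.80, and Fkbp9 with r = 0.84 and rho = 0.69. Cd36 is a scavenger receptor and fatty acid carrier, Foxd1 a transcription factor, and Fkbp9 a prolyl isomerase. Cd36 had r = 0.85 with Ifit3 but 0.24 with Isg15. Of these 15133 genes 74 reached r = 0.75. The genes were chosen for this likeness and no test was made.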

How the data were processed

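Cortical mRNA was sequenced from 8 ChR2-flfl and 8 Avil-ChR2 pups, grouped by the labels, with separate animals as replicates. The authors mapped reads (minimum length 50 bp) with SeqMan NGen 17 on GRCm38 (mm10), took gene counts from ArrayStar 17 and normalized these by TMM in edgeR. The deposited values are CPM on a linear scale, left empty where a gene had no read. Below 20000 reads, 100% of values were multiples of 1 read (tolerance 0.05 reads), which gave the depths. The rule for reads in overlapping genes is not given in the sources used here. CPM were log2 transformed without a pseudocount, with missing or lower values set to -5, and genes above -5 in at least 12 of 16 pups were kept (21183). Genotypes were compared with limma 3.58.1 in R 4.3.3 (intensity trend, Benjamini-Hochberg adjustment over all genes) and, per gene, a two-sided exact permutation test. Co-variation was tested by permutation on genotype-centred log2 values. P-values measure the spread between these pups, whose litters are not given in the labels used. Counting errors treat reads as independent molecules.

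The genes, lists and tests were chosen with earlier results of these data known. Genes named beside the 9 are those of each list with an unadjusted p under 0.05 (at most 4) or the 3 highest levels, and the 5 most like the mean of the 8. Exons were taken from GENCODE on GRCm38. The steps were tested on simulated data. Alternatives were other filters, pseudocounts, scalings, covariates, imputation, subsets and each pup left out. Same-numbered pups of the genotypes are different animals, and their deviations correlated by -0.0695 to 0.125, so the numbers do not pair them.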

Additional observations from a re-analysis of the deposited data

Results flagged for a closer look

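The genotype difference differed between the sexes at an unadjusted limma p under 0.05 for 4 of the 8 genes with sex as labelled (4.31% of all genes). With Avil-ChR2 replicate 4 as male, this held for 3 of 8 (6.23% of all genes). After adjustment it held for none. Ifit3, Oasl2 and Irf7 varied together (r = 0.75 to 0.92), so these counts are not of independent genes. With sex as labelled, the interaction (the genotype difference of males minus that of females, log2) was 0.93 for Ifit3 with a standard error of 0.41 (limma unadjusted p = 0.0359, adjusted p = 0.993). It was 0.90 for Irf7 (limma unadjusted p = 0.0385, adjusted p = 0.993), 0.77 for Oasl2 (limma unadjusted p = 0.0320, adjusted p = 0.993) and 0.46 for Ifih1 (limma unadjusted p = 0.0132, adjusted p = 0.993).

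Avil-ChR2 replicate 4, labelled female, is listed as male in the supplement of the study. As a male, the interaction was 1.14 for Ifit3 (limma unadjusted p = 0.00795, adjusted p = 0.794), 0.77 for Oasl2 (limma adjusted p = 0.799), 0.45 for Ifih1 (limma adjusted p = 0.799) and 0.71 for Irf7 (limma unadjusted p = 0.108, adjusted p = 0.855). In Avil-ChR2 pups, Ifit3 had a median of 0.947 CPM in 5 labelled females and 1.13 CPM in 3 labelled males, with overlap. In ChR2-flfl pups its medians were 1.03 CPM in 4 females and 0.580 CPM in 4 males, without overlap. By Dixon's test, none of the 16 groups of 8 values (8 genes in 2 genotypes) held an outlying pup.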

How the results depend on the processing

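None of the 8 genes had an adjusted limma p under 0.05 under any alternative that was run. At an unadjusted p, 0 to 1 of them passed when each pup was left out (Isg15, without Avil-ChR2 replicate 7). Of all genes, 1145 passed unadjusted, 672 in pups 26 to 33 alone and 929 to 1581 with a pup left out. An adjusted p under 0.05 was found for 2 genes (Avil and Mars), and for 1 with median centring, the replicate block, either run of pup numbers alone or voom, 1 to 2 with a pup left out and 3 with the run of pup numbers as a covariate. Of the other interferon-stimulated genes 3 passed unadjusted, 5 with the replicate block and 2 to 6 with a pup left out (6 without ChR2-flfl replicate 6). The median difference of the 8 genes was 0.2723 in pups 35 to 42, and -0.0153 to 0.1592 with a pup left out.

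Signs turned for 5 of the 8 genes. Usp18 was at 0.0116 with quantile normalization, 0.3003 in pups 35 to 42, 0.0285 with voom and -0.1701 to 0.1185 with a pup left out. Ifih1 was at 0.0490 in pups 35 to 42, 0.0092 with voom and -0.0589 to 0.0657 with a pup left out. Oasl2 was at 0.2442 in pups 35 to 42 and -0.1208 to 0.0667 with a pup left out, and Ifit3 and Irf7 were at -0.0550 and -0.1919 in pups 26 to 33. The cause was not tested.

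Of the pairs of genes 3 passed, and 2 to 5 with a pup left out (5 without Avil-ChR2 replicate 8, 2 without ChR2-flfl or Avil-ChR2 replicate 3). In pups 26 to 33 alone 0 passed and in pups 35 to 42 alone 1 (8 pups each), and the median r was 0.105 in the latter. With genes of a mean log2 value of at least 0, which leaves out Ifit3 and Irf7, 0 passed. With the replicate block 0 passed, on 8 differences, although r was 0.974, 0.928 and 0.933 for the 3 pairs (exact permutation adjusted p = 0.0718 for each). Same-numbered pups were closest to their own number in 1 of 8 cases. Voom and the male assignment of Avil-ChR2 replicate 4 were chosen after seeing the data. The planned edgeR quasi-likelihood and DESeq2 fits were not run, and voom on the reads worked out from the values was run in their place. Genes of 12 to 40 reads per pup (Isg15, Irf7, Usp18) are limited by counting.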

Other observations

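The genes closest to each of the 3 co-varying genes were looked up after the values were seen. Among 21182 genes, Ifit3 was closest to Oasl2 (r = 0.92), Gprc5c (r = 0.87), Vwa5a (r = 0.86) and Cd36 (r = 0.85). Oasl2 was closest to Ifit3 (r = 0.92), then to Gm26868 (r = 0.895) and Irf7 (r = 0.87), followed by LOC105246240 and Acss3 (r = 0.84 for both). Irf7 was closest to Oasl2 (r = 0.87), Gm34799 (r = 0.85), Timm8a1 (r = 0.82) and Bdh2 (r = 0.80). Trim34a, a member of the interferon-induced Trim family, was the fifth with r = 0.80. Of the other interferon-stimulated genes, Gm14446, the entry that encloses Ifit1, had r = 0.69 with Ifit3 and 0.71 with Oasl2, Nmi had 0.70 with Oasl2, and Trim21 had 0.69 with Irf7. These values are descriptions over the same 16 pups, and no test was made.

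Entries without reads that lie inside another entry were also found among markers. P2ry12, a microglial receptor, Ms4a1 of B cells and Alas2 of red cells had no read in any pup, and each lay inside another entry, as did the interferon-stimulated genes Cxcl10, Ifi27 and Ifi47. In the lists of other cell types, Ccr2 of monocytes was at 0.0908 ± 0.0802 CPM in ChR2-flfl and 0.157 ± 0.0628 CPM in Avil-ChR2 pups (SD, n = 8 each, log2 difference 0.92, limma adjusted p = 0.908), and Slc17a7 of glutamatergic neurons at 469 ± 42.9 and 507 ± 28.8 CPM (log2 difference 0.11, limma adjusted p = 0.884). Map2, another neuron marker, was at 1875 ± 112.7 and 1775 ± 55.3 CPM (log2 difference -0.08, limma adjusted p = 0.908). Ttr of the choroid plexus was at 0.118 ± 0.132 and 0.319 ± 0.374 CPM (log2 difference 1.33, limma adjusted p = 0.911). These 4 were the marker genes with an unadjusted limma p under 0.05, which 5.41% of all genes had. They made up 10% of 10 tested other myeloid and lymphoid, 25% of 8 neuron and 25% of 4 choroid plexus markers. No gene of the other marker lists passed. Ccr2 and Ttr had a lowest control value of 0 CPM, which was set to -5 on the log2 scale, and their log2 differences depend in part on this floor.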
